A study of Mus musculus with 2 samples.

Results

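The transcripts of 7 genes of cholesterol synthesis and its control were counted in single cells of a mouse pancreatic cancer line. The genes were Srebf2, Insig1, Hmgcs1, Idi1, Fdps, Sqle and Lss, found by symbol among the 33696 features of the count matrix. They were chosen by name, together with 2 classes of cells, A and B, that are defined by other genes. None of the 7 encodes a receptor or carrier that takes up cholesterol, so the genes of uptake are described from a separate list.

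The cells were of KPCY 6419c5, a pancreatic ductal adenocarcinoma line. KPCY lines come from mouse pancreatic tumours that carry a yellow fluorescent reporter. All cells had received an adenine base editor built on Cas12a for lineage tracing. Clones 76 and 84, each grown from a sorted cell, were mixed in equal numbers after 19 days of editing and sequenced as 1 droplet library, so every comparison lies within that library. A second sample, a pool of 5 clones, was not analysed here.

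Of 22178 barcodes, 21361 passed the filter. It asked for 2000 or more unique molecular identifiers (UMIs, each marking 1 captured transcript), 1000 or more genes, and a mitochondrial share no higher than 15%. A cells held at least 2 UMIs of Pde10a, Plcb1, Galnt18, Arhgap15 and Ceacam1 together, and at least 3 times as many of these as of the B list. B cells met the same rule for S100a7a, Rgs20, Hs6st2, Ccbe1, Ctse and Mal. This gave 7816 A cells, 8936 B cells and 4609 cells of neither class. The line between the classes is a threshold: 1650 A cells and 1197 B cells held exactly 2 UMIs of their own list, and 1535 and 950 cells just outside held 1 UMI of the A or the B list and none of the other. No file used here ties cells to clones, and A and B are not named as clone 76 or 84. Median depth was 4699.5 UMIs in A cells and 5440.5 in B cells, and the median mitochondrial share was 3.19% and 1.89%.

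The labelled epithelial cancer identity was checked against marker lists. Summed keratin and other epithelial markers stood at 2782 CPM (UMIs scaled to a class total of 1000000) in A cells and 7900 in B cells, with all 10 markers detected in both. Markers of other cells were low: acinar genes were at 13.7 and 4.38 CPM with 4 of 6 at 0, and immune genes at 3.45 and 0.947 CPM. Endothelial genes were at 33.5 and 8.55 CPM, nearly all of it Egfl7 (32.6 and 7.75 CPM), with Kdr and Emcn at 0. Fibroblast genes were at 2.11 and 0.929 CPM.

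Cells make cholesterol from acetyl-CoA through the mevalonate pathway, then build and close the sterol rings. The transcription factor SREBP2, encoded by Srebf2, switches on nearly every enzyme of this route when sterols in the endoplasmic reticulum run low, and also its own gene. When sterols are plentiful, INSIG proteins hold the precursor of SREBP2 in the endoplasmic reticulum, and Insig1 is itself a target of the factor. Rapidly dividing tumour cells need sterols for membranes and isoprenoids for anchoring proteins.

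SREBP2 is known to bind sterol regulatory elements in promoters, often beside sites of the CCAAT-binding factor NF-Y. RefSeq promoter windows, of 250 bases before the annotated start on GRCm38.p6, were found for 5 of the 7 genes, with none for Sqle and Fdps. The Lss window does not end at the annotated start of that gene, and is counted but not printed. The 3 windows printed hold a sterol element core or an E-box, which SREBPs are also known to bind. Capitals mark the core TCACCCCA, the E-box CACGTG, and CCAAT, which reads ATTGG on the other strand. All 3 lie on the plus strand, and no motif overlaps another.
Hmgcs1: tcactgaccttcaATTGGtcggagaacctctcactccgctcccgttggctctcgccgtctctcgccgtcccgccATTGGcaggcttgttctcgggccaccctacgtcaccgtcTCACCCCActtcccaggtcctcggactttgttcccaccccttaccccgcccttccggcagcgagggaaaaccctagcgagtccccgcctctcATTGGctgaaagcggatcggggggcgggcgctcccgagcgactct
Srebf2: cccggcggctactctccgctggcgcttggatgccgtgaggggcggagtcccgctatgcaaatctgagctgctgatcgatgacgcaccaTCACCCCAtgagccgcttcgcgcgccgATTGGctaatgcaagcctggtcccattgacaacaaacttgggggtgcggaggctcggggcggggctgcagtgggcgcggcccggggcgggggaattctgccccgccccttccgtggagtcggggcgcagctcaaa
Insig1: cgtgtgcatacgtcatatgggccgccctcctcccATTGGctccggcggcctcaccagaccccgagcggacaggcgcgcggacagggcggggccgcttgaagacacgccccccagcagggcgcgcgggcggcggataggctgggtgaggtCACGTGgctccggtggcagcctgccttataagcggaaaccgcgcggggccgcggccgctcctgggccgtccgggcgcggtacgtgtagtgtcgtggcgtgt
The Hmgcs1 window is chr13:119690101-119690350, and its core begins 137 bases before the start, with CCAAT matches 237, 176 and 45 bases before it. In Srebf2, at chr15:82147019-82147268, the core begins 162 bases before the start and a CCAAT match 135 bases before it. The Insig1 window, chr5:28071162-28071411, holds the E-box 101 bases before the start and a CCAAT match 216 bases before it. With both strands searched, the core was found in 2 of 5 windows, the E-box in 1 of 5 and CCAAT in 5 of 5. Among all 32851 RefSeq windows of this length, 1.34%, 6.02% and 33.8% hold these letters. The motifs were chosen after the sequences were seen, and a match describes letters, not binding.

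All 7 genes were higher in B cells than in A cells. Summed over the 7, B cells stood at 547 CPM (95% exact Poisson interval 541 to 554) and A cells at 276 CPM (271 to 281), a 1.98-fold difference (1.94 to 2.03). The excess was 2.75-fold for Idi1 at the largest and 1.44-fold for Lss at the smallest, and cells of neither class lay between A and B for every gene. That group is a remainder of the class rule: 2485 of its 4609 cells held 1 UMI of 1 list only, and 785 held UMIs of both. Its middle place is therefore no separate support for the difference. Of 18 measured synthesis enzymes, 5 of the 7 genes among them, 16 were higher in B cells and 7 were within 1.5-fold, where 37.7% of all measured genes were higher in B cells. Dhcr7, whose mean was under the 10 CPM asked of measured genes, was higher in A cells. With 1 library there is no replicate and no test, and every interval covers counting error only.

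The regulators had smaller folds than 4 of the 5 enzymes. Srebf2 (ENSMUSG00000022463) was at 38.4 CPM (36.5 to 40.4) in A cells, 47.3 in cells of neither class and 61.2 (59.1 to 63.3) in B cells, 1.59-fold higher in B cells. The A level was 0.628 of the B level (0.591 to 0.668). Insig1 (ENSMUSG00000045294), which holds SREBP precursors back, was at 15.2 CPM (14.0 to 16.4) in A, 24.7 in neither and 26.6 (25.3 to 28.1) in B cells, 1.75-fold higher in B (1.59 to 1.93). The transcript of the factor and that of its brake were thus higher in the same class, and the counting intervals of A and B did not overlap for either.

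The 3 mevalonate enzymes carried most of the UMIs. Hmgcs1 (ENSMUSG00000093930), the cytosolic HMG-CoA synthase at the entry of the pathway, was at 19.9 CPM (18.6 to 21.3) in A cells, 32.9 in neither and 38.8 (37.1 to 40.5) in B cells. Idi1 (ENSMUSG00000058258), which isomerises isopentenyl diphosphate, was at 28.7 (27.1 to 30.4), 51.0 and 79.0 CPM (76.7 to 81.5). Fdps (ENSMUSG00000059743), which makes farnesyl diphosphate for sterols and for protein prenylation, was at 144 (140 to 148), 216 and 283 CPM (278 to 288). The B over A folds were 1.95 (1.79 to 2.11) for Hmgcs1, 2.75 (2.58 to 2.94) for Idi1 and 1.96 (1.91 to 2.02) for Fdps. Idi1 stood above the other six, its interval overlapping none of theirs. Because Fdps held 14934 of the 28879 UMIs of the 7 genes in B cells, the sum was also taken without it, and gave 132 CPM in A and 264 CPM in B cells, 2.00-fold. Among annotated transcripts, Fdps and Idi1 have 7 and 5 similar copies (at least 90% identity over 200 bases), none of them a feature of the matrix. Identity ran from 90.2% to 100%, so reads from the closest copies may not be told apart from theirs. Hmgcs1 has 1 such copy, Gm48342, a feature with 10 UMIs.

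The 2 enzymes of the sterol branch had the second largest and the smallest fold of the 7. Sqle (ENSMUSG00000022351), the squalene epoxidase that limits flux into sterols, was at 20.5 CPM (19.1 to 21.9) in A cells, 33.5 in neither and 45.4 (43.6 to 47.3) in B cells, 2.22-fold higher in B (2.05 to 2.40). Lss (ENSMUSG00000033105), the lanosterol synthase that closes the rings, was at 9.21 CPM (8.30 to 10.2), 11.1 and 13.2 CPM (12.3 to 14.3), 1.44-fold higher in B (1.27 to 1.64). Lss rests on 371 A and 699 B UMIs, the fewest of the 7. In the order of folds, Idi1 and Sqle came first, and the interval of Sqle overlaps that of Hmgcs1 but not of Fdps. From Fdps down through Hmgcs1, Insig1, Srebf2 and Lss, each overlaps its neighbour. A stretch of Sqle also matches part of Sdccag8, a gene with counts of its own, so a share of its reads could be assigned either way.

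**Figure D1:**
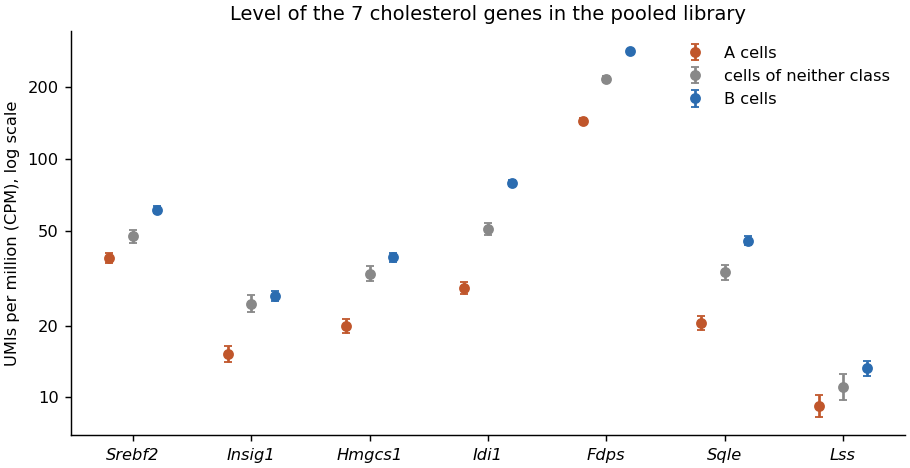
Level of each of the 7 genes in CPM, on a log scale, in A cells (orange), cells of neither class (grey) and B cells (blue), with 95% exact Poisson intervals that cover counting error in 1 library. In each gene the A cells are lowest and the B cells highest, from Lss at 9.21 and 13.2 CPM to Fdps at 144 and 283 CPM. The plot is to be read within a gene, since counts of 3′ ends are not scaled to compare genes.

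The share of cells with at least 1 UMI followed the levels. At full depth, Fdps was seen in 47.3% of A and 69.0% of B cells, Idi1 in 13.0% and 32.2%, Sqle in 9.77% and 22.3%, and Lss in 4.55% and 7.39%. B cells were deeper, so each cell was also thinned at random to 3000 UMIs, which left out 410 A and 109 B cells. The thinned shares were 33.1% and 50.2% for Fdps, 8.01% and 19.6% for Idi1, 6.41% and 12.6% for Sqle, and 2.69% and 4.09% for Lss. The order of the classes was thus the same at equal depth. No cell type in the library should lack these genes, so no background share could be measured for them. Endocrine markers, which these cells should lack, were seen in 0.0384% of A and 0.0336% of B cells, and give no such background.

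The differences were read against all genes. Of 8229 genes with a mean of at least 10 CPM, the class-defining genes left out, 6.14% were at least 2-fold higher in B cells and 8.7% in A cells. Sqle and Idi1, 2 of the 7, passed 2-fold. Past 1.5-fold were 11.7% of all genes in B and 21.8% in A cells, and 6 of the 7 genes in B, with Lss the exception. Any excess in B was seen in 37.7% of all genes and in 7 of 7. On the log2 scale of A over B, the 7 genes had a median of -0.96 (range -1.46 to -0.52), and all genes a median of 0.16. Taken relative to that median, 4 of the 7 passed 2-fold and 7 of 7 passed 1.5-fold, against 7.68% and 15.7% of all genes, with 6.45% at least 2-fold higher in A. With that scaling the genes past 2-fold numbered 531 higher in A and 632 in B, in place of 716 and 505. The share of all genes with a lower ratio than the gene itself ranged from 3.68% for Idi1 to 12.9% for Lss.

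The rest of the pathway was described from lists of its enzymes, sensors, transporters and branches. Among the other 4 mevalonate genes, 3 were higher in B cells and none reached 2-fold. Mvd, the decarboxylase, was at 9.96 CPM in A and 15.3 in B cells (log2 A over B -0.62), and Acat2, an acetyl-CoA thiolase, at 20.9 and 17.3 (0.28). The sterol branch had the lowest median of the lists: of 9 measured genes other than Sqle and Lss, 5 were at least 2-fold higher in B cells and none in A, with a median log2 of -1.23. Tm7sf2, a sterol reductase, was at 4.05 CPM in A and 44.7 in B cells (-3.46). Tm7sf2 and Hsd17b7 (8.72 CPM in A cells) met the mean of 10 CPM asked of measured genes only through B cells. Dhcr7, higher in A cells at 10.3 and 5.63 CPM, fell under it, so the count of 5 leans on the B level.

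The other sterol genes past 2-fold had ratios close to each other. Cyp51, the lanosterol demethylase, was at 51.7 CPM in A and 124 in B cells (log2 -1.26). Msmo1, which oxidises sterol methyl groups later in the branch, was at 49.5 and 120 (-1.27). Fdft1, the squalene synthase, was at 16.4 and 38.5 CPM (-1.23), and Hsd17b7 at 8.72 and 22.9 (-1.39). The lamin B receptor Lbr, which shares the reductase activity of Tm7sf2, was at 80.4 and 70.2 CPM (0.20), and was the 1 measured gene of the branch with a lower level in B cells. Sc5d (-0.65), Ebp (-0.37) and Nsdhl (-0.32) lay between, and are named after their values were seen. Over all 18 measured synthesis enzymes, 7 were at least 2-fold higher in B and 0 in A cells, with a median of -0.81. Tm7sf2 and Hsd17b7, which met the minimum through B cells, are among those past 2-fold.

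Genes around the pathway lay on either side. The 7 other sensing genes had a median log2 of 0.13, with 3 higher in B and 4 in A cells, and none past 2-fold. Their range ran from Insig2, the second INSIG, at 28.3 CPM in A and 36.2 in B (-0.36), to Mbtps1, the protease that makes the first cut in SREBP precursors, at 44.1 and 25.1 (0.81). Of 4 measured genes of uptake and transport, Npc1, which exports cholesterol from lysosomes, was at 11.4 and 27.2 CPM (-1.26), while Stard4, a carrier of cholesterol between membranes, was at 73.6 and 27.1 (1.44). Of 4 measured genes of efflux and storage, Soat1, which esterifies cholesterol for storage, was at 41.0 and 232 CPM (-2.50), and Lipa, which frees it from esters in lysosomes, at 44.6 and 22.1 (1.02). Each of these lists had 2 genes higher in A and 2 in B cells.

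The branches fed by the same precursors lay near the median of all genes. Isoprenoid genes had a median log2 of 0.26 over 7 genes with none past 2-fold, from Pggt1b (-0.37) to Fnta (0.77), both subunits of protein prenyltransferases. Genes of fatty acid synthesis, which is driven mainly by the related factor SREBP1, had a median of 0.16 over 8 genes. They ran from Me1, a source of NADPH, at 123 and 187 CPM (-0.61) to the desaturase Fads2 at 23.9 and 7.67 CPM (1.64).

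**Figure D2:**
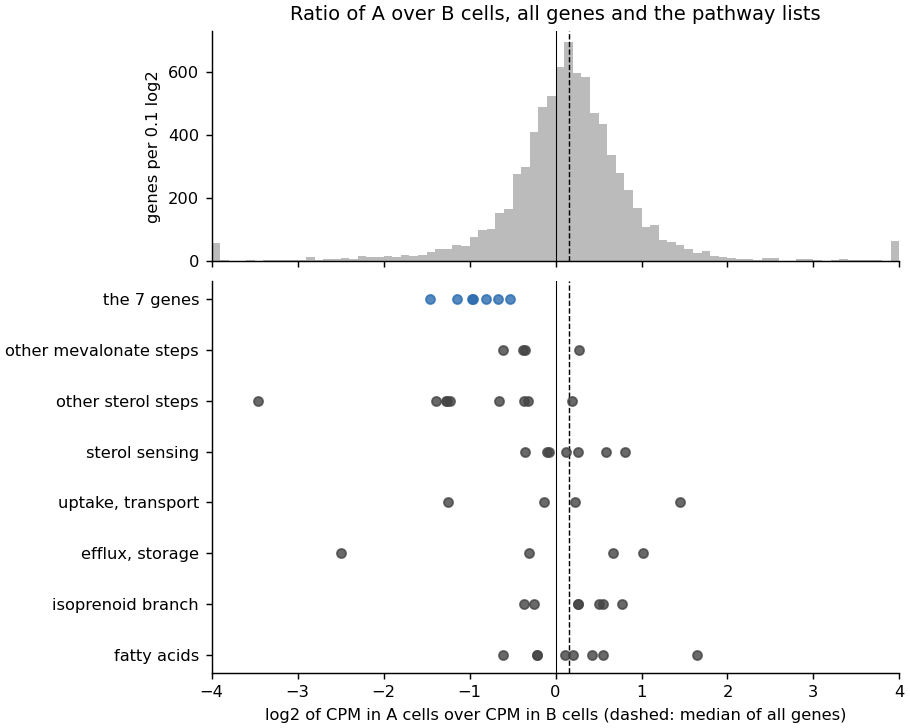
Upper panel: number of genes by log2 of CPM in A over CPM in B cells, in steps of 0.1, for 8229 genes with at least 10 CPM, the end bars holding genes beyond the axis. Lower panel: the same ratio for each measured gene of each list, with the median of all genes (0.16) as a dashed line. The 7 genes (-1.46 to -0.52) and most other sterol genes lie left of both lines, whereas the remaining lists lie on either side.

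Other measured features also differed between the classes. Cell-cycle lists were somewhat lower in B cells (S phase 2162 CPM in A and 1869 in B, G2/M 4426 and 3741), and an immediate-early stress list was higher (205 and 412 CPM). Their log2 ratios of A over B were 0.21, 0.24 and -1.01, where all genes had a median of 0.16. The cell-cycle lists thus lay close to that median. Among cells of 4000 to 6000 UMIs in both classes, the summed log2 ratio was -1.04 in place of -0.99. Among cells with 2 to 3% mitochondrial UMIs it was -1.12, a choice made after the data were seen. The part of the cell cycle and of stress in the difference was not tested.

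Co-expression was measured within each class. Cells near the class threshold and doublets were kept, and alternatives left them out. A stricter class rule, of 4 UMIs and 5 times, kept 4470 A and 6271 B cells. The kept cells were deeper, with medians of 4909 and 5780 UMIs, so threshold and depth changed together. Under this rule the median correlation given next was 0.0228 in A cells, in place of 0.0190. In B cells it was 0.0457, in place of 0.0589. Without barcodes marked as doublets it was 0.0187 in A and 0.0549 in B cells. Each cell was thinned to 3000 UMIs, and Pearson's r of log2(1 + UMIs) was averaged over 20 random draws for the 21 pairs of the 7 genes, across 7406 A and 8827 B cells. By r, all 21 pairs were positive in both classes. The median r was 0.0190 in A cells (range 0.000385 to 0.0643) and 0.0589 in B cells (0.0199 to 0.190). In A cells the median was 0.00714 in 1586 cells low in both cell-cycle lists, and 0.0372 in 3315 cells thinned to 5000 UMIs. All cells come from 1 library, and the values are a description. For scale, pairs of all genes of at least the level of Lss had a median of 0.0001 in A and 0.0002 in B cells. Their 95th percentile was 0.0219 and 0.0196, and their 99th 0.0328 and 0.0288. The median of the 21 pairs thus lay under the 95th percentile in A cells and above the 99th in B cells.

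By r, which is higher for genes with more UMIs, the strongest pair in both classes joined consecutive enzymes. Idi1 and Fdps, whose products follow each other in the pathway, had an r of 0.190 in B and 0.0643 in A cells. In B cells they were followed by Hmgcs1 with Fdps (0.138), Sqle with Fdps (0.114) and Hmgcs1 with Idi1 (0.108). The last of these was 0.00792 in A cells. The number of cells holding both genes was also counted. In B cells, Hmgcs1 and Idi1 were seen together in 285.5 cells per draw, where independence gives 186.7, a ratio of 1.53, and in A cells in 37.3 against 34.1, a ratio of 1.09. Over the 21 pairs this ratio had a median of 1.25 in B cells (1.08 to 1.64) and 1.21 in A cells (1.04 to 1.38), and of 1.37 in B cells whose UMIs of the 7 genes were drawn down to the A level. It ordered the pairs differently from r: Idi1 with Fdps had 1.24 in B and 1.20 in A cells, and the highest in B cells was Hmgcs1 with Lss.

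**Figure D3:**
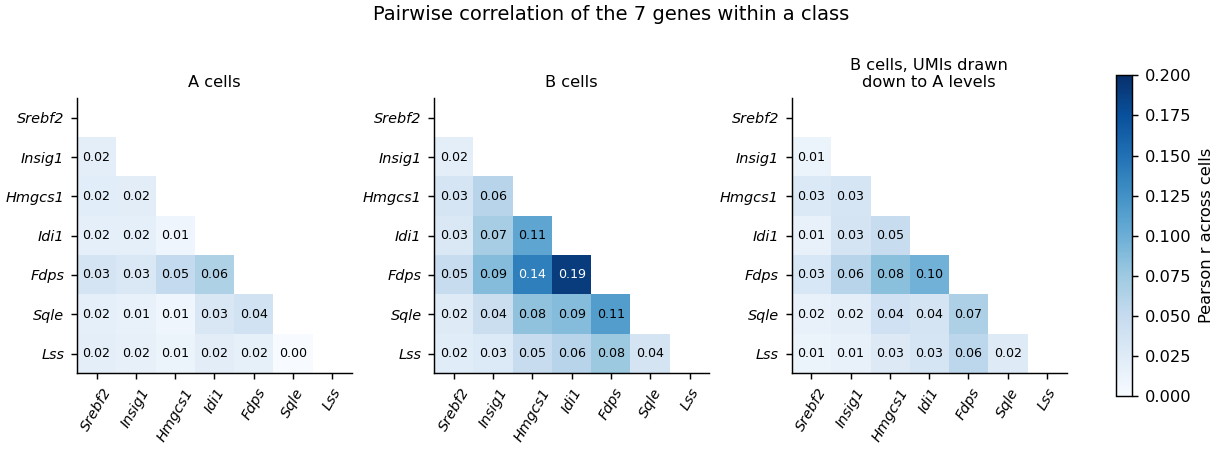
Pearson's r across cells for each pair of the 7 genes, from log2(1 + UMIs) in cells thinned to 3000 UMIs, averaged over 20 draws, in A cells, B cells, and B cells whose UMIs of the 7 genes were drawn down at random to the A level. Darker squares are higher, with Idi1 and Fdps darkest in each panel (0.0643, 0.190 and 0.0964), and the Srebf2 column is paler than most others in B cells (0.0199 to 0.0473) but not in A cells.

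Pearson's r falls with the level, and the 7 genes were lower in A cells. When the UMIs of the 7 genes in B cells were drawn down at random to the A means, a step added after the data were seen, the median r was 0.0333 (0.0120 to 0.0964), between the values of the classes. The covariance divided by the product of the means, which does not shrink as a gene is sampled less deeply, was 0.296 in A cells when pooled over the 21 pairs, 0.480 in B cells and 0.456 in B cells drawn down. Its median over the pairs was 0.265 in A and 0.510 in B cells. In cells low in both cell-cycle lists that median was 0.155 and 0.564. By this measure 1 pair, Sqle with Lss in A cells, was below 0 (-0.0134). The highest pair was Hmgcs1 with Idi1 in B cells (0.783) and Lss with Insig1 in A cells (0.550). Idi1 with Fdps, the highest by r, had 0.668 in B and 0.489 in A cells. The pooled value was thus higher in B than in A cells, but not for the pooled pairs with Srebf2 or for Lss with Insig1 (0.550 in A and 0.466 in B cells). The difference has no interval, since cells are not replicates.

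In B cells, Srebf2 covaried least. The normalized covariance, pooled over its 6 pairs, was 0.169 in B and 0.202 in A cells, and over the 15 pairs without it 0.606 and 0.347. By r, its pairs had a median of 0.0266 in B cells, from 0.0199 with Insig1 to 0.0473 with Fdps, and the others 0.0755. In A cells the median r was 0.0191 with Srebf2 and 0.0172 without it, so the measures gave different orders there. The protein and its processing were not measured.

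Cells were next grouped by the number of UMIs of the other six genes. Idi1 in B cells was at 49.3 CPM in 2841 cells with 0 UMIs of the other genes, 64.5 with 1, 87.2 with 2 and 151 in 1675 cells with 3 or more, a 3.07-fold difference between the ends (2.72 to 3.47). In A cells the same steps gave 23.1, 29.2, 36.2 and 54.4 CPM, 2.36-fold (1.76 to 3.11). Idi1 was thus higher at each step in both classes, as a description of these cells.

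In B cells the end-to-end fold was between 2.61 for Insig1 and 3.12 for Hmgcs1 in 6 of the 7 genes. Srebf2 was at 55.2 CPM at 0 and 75.3 at 3 or more, 1.37-fold (1.19 to 1.56). In A cells the folds ran from 1.42 for Srebf2 (1.05 to 1.88) to 2.72 for Fdps (2.21 to 3.32), the latter resting on 94 cells at the upper end. For Hmgcs1 the fold was 1.65 (1.14 to 2.32) in A and 3.12 (2.62 to 3.71) in B cells, with intervals that do not overlap. For the other six they overlap. The bins hold cells of different total levels in A and B, and the folds were not adjusted for that.

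**Figure D4:**
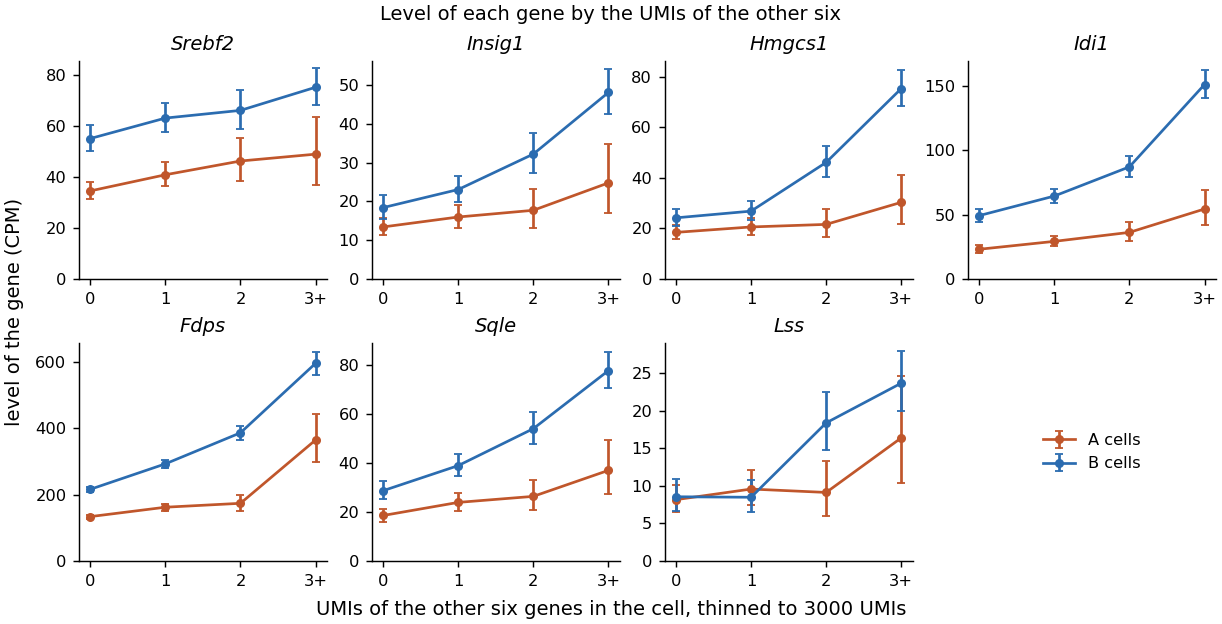
Level of each gene in CPM (linear axes from 0, with a scale of their own) in cells with 0, 1, 2 and 3 or more UMIs of the other six genes, thinned to 3000 UMIs, for A (orange) and B cells (blue) with 95% exact Poisson intervals. Lines climb most for Hmgcs1 and Idi1 in B cells (3.12- and 3.07-fold) and least for Srebf2 (1.37-fold in B and 1.42-fold in A cells).

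Per thinned cell, the summed 7 genes had a mean of 0.842 UMIs in A and 1.69 in B cells. In A cells 46.8% had 0 and 6.75% had 3 or more, and in B cells 28.0% and 23.9%. The variance over the mean was 1.31 in A and 1.94 in B cells, where independent sampling of equal cells gives a value of 1. For a like spread between cells, this ratio rises with the mean, which was higher in B cells. The variance beyond the mean, divided by the squared mean, does not, and was 0.363 in A and 0.556 in B cells. Fdps gives most of these UMIs in both classes.

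Other genes that varied with the 7 were sought across 6012 genes with at least 0.05 UMIs per thinned cell, by r with the summed 7 genes within each class and ranked by the mean of A and B. Sterol genes took ranks 1, 2 and 4. Cyp51 had an r of 0.0996 in A and 0.238 in B cells, Msmo1 0.0949 and 0.241, and Fdft1 0.0763 and 0.152. Of 9 ranked synthesis enzymes, 4 were among the 10 highest and 8 among the 50 highest. Pmvk, the phosphomevalonate kinase, was the fourth of them in the first 10 (mean r of A and B 0.0701), and Lbr was the 1 outside the first 50 (0.0283 and 0.00136). The 99th percentile of all ranked genes was 0.0266 in A and 0.0547 in B cells.

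Covariation within a class and the difference between classes did not always run together. Scd2, the stearoyl-CoA desaturase, took the third rank (0.0750 in A and 0.188 in B cells) although it was lower in B cells, at 120 CPM in A and 81.6 in B. Stard4, lower in B cells as well, had an r of 0.0186 and 0.0699. Soat1, higher in B cells, had an r of 0.00402 in A and -0.0503 in B cells.

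The remaining genes of the first 10 are known from outside the pathway. They were the secreted chaperone Clu (0.0326 and 0.162), the secreted phosphoprotein Spp1 (0.0497 and 0.126), Prxl2a (0.0285 and 0.116), the calcium-binding S100a6 (0.000916 and 0.141) and the LIM protein Crip1 (0.0343 and 0.104). Clu, Prxl2a and Crip1 were also at least 3.81-fold higher in B cells than in A cells, S100a6 1.72-fold higher, and Spp1 lower (1052 CPM in A and 751 in B). At the other end lay the ribosomal genes Rpl6 (-0.0308 and -0.104), Rplp0 (-0.0112 and -0.116) and Rpl21 (-0.0233 and -0.103), whose families are known for many near-identical copies. Copies of these were not sought, and their counts are uncertain.

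**Figure D5:**
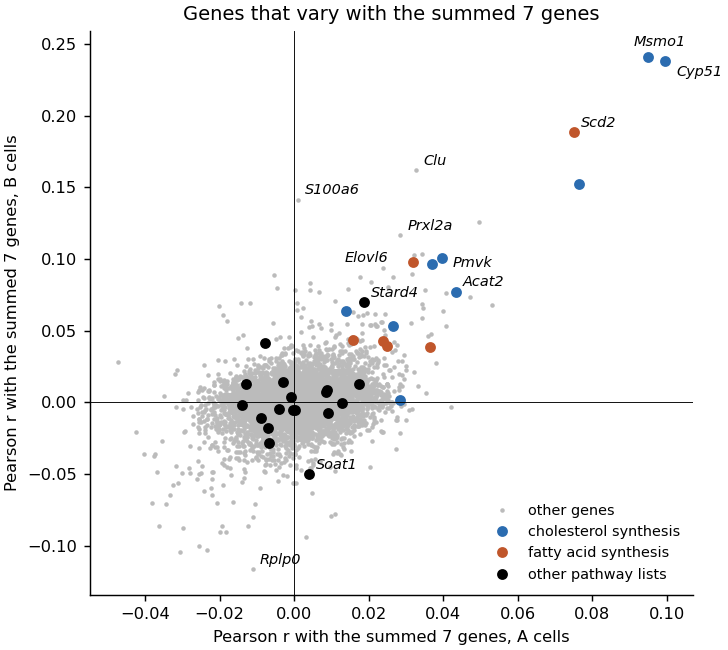
Pearson's r with the summed 7 genes across A cells (horizontal axis) and B cells (vertical axis) for 6012 genes in cells thinned to 3000 UMIs, averaged over 5 draws. Cyp51 (0.0996, 0.238) and Msmo1 (0.0949, 0.241) lie farthest to the upper right, followed by Scd2, while most genes lie near 0.

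Within B cells the 7 genes differed between expression states. B cells with at least 2 UMIs of Areg, Btc and Cftr (3671 cells) stood at 498 CPM for the summed 7 genes, and those with 0 (2636 cells) at 647 CPM, a ratio of 0.769 (0.740 to 0.799). All 7 were lower in the first group, from 0.715 for Fdps to 0.902 for Insig1, where 51.2% of 7040 genes were lower between the same cells. These are the genes at least as high as the lowest of the 7 in the class, without those that define the state. B cells with at least 2 UMIs of the squamous genes Krt14 and Sprr1a (822 cells) stood at 624 CPM and those with 0 at 544, a ratio of 1.15 (1.09 to 1.21), with 5 of 7 higher and 47% of all such genes. The median depths were 5371 and 5592.5 UMIs for the Areg states, and 5825.5 and 5391.5 for the squamous states.

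Cell cycle, depth, mitochondrial share and stress genes also went with the level in B cells. The ratio of the highest to the lowest tercile was 0.834 for the S-phase list, with 7 of 7 lower and 46.9% of all genes. It was 0.844 for the G2/M list, with 6 of 7 lower and 57.2% of all genes. For depth it was 0.823, with 7 of 7 lower and 56.5% of all genes. For mitochondrial share it was 1.23, with 7 of 7 higher and 50% of all genes. Between cells with at least 2 and with 0 UMIs of the immediate-early stress list it was 1.14 (1.10 to 1.19), with 6 of 7 higher and 47.4% of all genes. By gene, the depth ratio was 0.619 for Hmgcs1 and 0.655 for Insig1, the lowest of the 7. Their part in the state differences was not tested.

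In A cells the ratios were closer to 1. The summed 7 genes had a ratio of 1.01 (0.940 to 1.08) between cells with at least 2 and with 0 UMIs of S100g, Epcam and Tm4sf20, and 0.930 (0.874 to 0.989) for Tnc, Acta2 and Ptchd4. The ratio was 0.992 for S phase, 0.990 for G2/M, 1.01 for mitochondrial share and 0.934 for depth, and 1.08 (1.00 to 1.16) for the stress list, with 6 of 7 genes higher and 53.9% of all genes. Hmgcs1 (0.672) and Insig1 (0.671) were again lower in the deepest A cells, as they were in B cells.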

How the data were processed

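Whole-number UMI counts per gene and barcode were deposited as a matrix by the authors, from 1 pooled library made with the 3′ v4 droplet chemistry per the labels' protocols. The submitters' processing notes name Cell Ranger 8.0.1 and GRCm39, and any further filter by the authors is not given in the sources used here. The genes, lists and classes were chosen with earlier results of these data known.

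UMIs of a class were summed and divided by its total, as CPM. Intervals are 95% exact Poisson (levels), exact Clopper-Pearson (shares) or exact conditional intervals (ratios), and cover counting error only. Named were the 7 genes; per list the highest and lowest ratio and any past 2-fold, at a mean of at least 10 CPM; and the 10 highest and 3 lowest correlations with their sum. Some genes that the lists or the rule pick are not reported here. Doublets were kept; Scrublet (scanpy 1.11.5, expected rate 0.08) marked 1.87% of A, 2.33% of B and 9.20% of other cells, which an alternative leaves out. Computations used Python 3.11.15, numpy 2.4.6 and scipy 1.17.1, and were tested on simulated data. Promoter windows are RefSeq on GRCm38.p6, another build than that of the counts, and near-identical copies were sought in GENCODE transcripts with blastn.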

Additional observations from a re-analysis of the deposited data

How the results depend on the processing

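With 8 alternative cell filters, class rules, doublet removal and scalings, all 56 log2 ratios of A over B for the 7 genes were below 0 (-1.62 to -0.35), and 46 of them lay within the counting interval of the reported value. The summed ratio, -0.99, was -1.04 in cells of 4000 to 6000 UMIs, -1.12 in cells of 2 to 3% mitochondrial UMIs, and -1.14 when scaled by the median ratio, which by construction subtracts the median of all genes. Genes past 2-fold numbered 189 higher in A and 179 in B at a minimum of 50 CPM, and 1667 and 1111 at 1 CPM, where 3424 and 12167 genes were counted. The other alternatives gave 531 to 786 and 505 to 632.

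The median pair correlation was 0.0123 in A and 0.0405 in B cells thinned to 2000 UMIs, and 0.0372 and 0.0819 at 5000, settings that also change which cells are kept. It was 0.0218 and 0.0567 under the strict cell filter, 0.0228 and 0.0457 under the strict class rule, 0.0235 and 0.0529 in cells of 4000 to 6000 UMIs, 0.0251 and 0.0641 in cells of 2 to 3% mitochondrial UMIs, and 0.0185 and 0.0504 by Spearman's measure. In cells low in both cycle lists it was 0.00714 (1586 A cells) and 0.0696. In B cells it was 0.0549 without doublets and 0.0333 when drawn down to A levels. The cause of these shifts was not tested. B cells had the higher median under each setting run on both classes. Lss and Insig1 rest on the fewest UMIs, 371 and 612 in A cells. No paired analysis was possible because there is 1 library.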

Other observations

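Several cholesterol genes lay under the minimum of 10 CPM and are named here after their values were seen. Abca1, which exports cholesterol to lipoproteins and is known as a target of liver X receptors, had 336 UMIs in A cells (8.34 CPM) and 19 in B cells (0.360 CPM). Nr1h3, which encodes a liver X receptor, was at 12.3 and 4.45 CPM. Cyp27a1, which makes the side-chain oxysterol that can activate these receptors, had 8 UMIs in A and 154 in B cells. Vldlr, a receptor for lipoproteins, had 92 and 12 UMIs, and Dhcr7, the last reductase of the sterol branch by 1 route, was at 10.3 and 5.63 CPM, higher in A cells unlike most of that branch. Abcg1, another cholesterol exporter, had 0 UMIs in both classes.

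Among genes ranked by covariation with the 7 genes, ranks 11 to 20 held 3 keratins, 3 genes of the cholesterol and fatty acid lists (Sc5d, Elovl6 and Acat2), and Tuba1a, Lgals2, Gsta4 and Pcyt2. Krt7 had an r of 0.0471 in A and 0.0734 in B cells, Krt19 0.0238 and 0.0938, and Krt8 0.0266 and 0.0870. Near the bottom were Id1 (-0.0383 and -0.0702), Id3 (-0.0198 and -0.0908) and Top2a (-0.0182 and -0.0908), the last a gene of dividing cells. These too were named after their values were seen.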
